A study of Mus musculus with 6 samples.

Results

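Expression of 34 genes of glycolysis and of the hypoxia response was compared between macrophages of mice with an intact and with a deleted Cdh11 gene. The genes were chosen by symbol: each enzyme step from glucose to lactate, the transporters at both ends of the route, the hypoxia-inducible factor HIF-1 alpha with its regulators, and further HIF targets. All 34 were found among the 42256 genes of the count table, and all 34 were among the 12862 genes with enough counts to be tested. For the description they were split into 23 metabolic genes and 11 genes of HIF regulation and other HIF targets.

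The wild-type group (WT, CDH11+/+) and the knockout group (KO, CDH11-/-) had 3 libraries each. Both came from adult male mice on a mixed background of 129S1/Sv and C57BL/6, and the cells received no treatment. Bone marrow cells were grown for 7 days with 20% L929-conditioned medium, a source of the macrophage growth factor CSF1, and 10% FBS. The series design mentions 4 KO animals, of which 3 libraries were analysed here. Since no label ties a library to an animal, the p-values reflect only how much these libraries vary, which may be technical variation.

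Glycolysis splits glucose into pyruvate in the cytosol and yields ATP without oxygen. Lactate dehydrogenase turns pyruvate into lactate, which leaves the cell through monocarboxylate transporters. HIF-1 alpha is marked for degradation by oxygen-dependent prolyl hydroxylases (the Egln genes), so its activity is set mainly at the protein level and is not read from its own transcript. When stabilised, it pairs with ARNT and binds the hypoxia response element at many glycolytic genes and at genes for vessel growth, mitophagy and chromatin demethylation. Macrophages raise glycolysis on inflammatory activation as well as in low oxygen.

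Total counts per library ran from 27170943 to 37113689. Cdh11 itself had 6 to 11 counts in WT and 4 to 6 in KO, too few to check the genotype labels. Macrophage-defining genes were abundant in every library. The summed level of 10 such genes was 32408 to 34959 CPM in WT and 21142 to 26725 CPM in KO, most of it Lyz2. Of the 10, Csf1r, Lyz2 and Cd14 fell in KO and Cd63 and Cd68 rose, where 35.2% of all tested genes rose or fell. Only Csf1r kept its call on omitting any 1 library. Lyz2 lost it without WT 1 or WT 2, and Cd14, Cd63 and Cd68 lost it on omitting most of the libraries. All levels are CPM, counts scaled by TMM-adjusted library totals. Of the lists for other lineages, 7 megakaryocyte genes summed to 208.5 to 266 CPM in WT and 225 to 309.9 CPM in KO, and 10 neutrophil genes to 123 to 199.5 and 83.9 to 167 CPM. Summed CPM of 7 T and NK cell genes reached at most 1.48, of 7 dendritic cell genes 2.82, of 8 erythroid genes 4.15, of 8 fibroblast genes 5.07 and of 7 B cell genes 6.81. The 7 mast cell and basophil genes summed to 0.724 to 1.13 CPM in WT and to 2.04 to 5.05 CPM in KO. Each KO library was thus above each WT library. Of the 2 tested, Kit was called higher, at 0.226 to 0.268 CPM in WT and 0.491 to 1.30 CPM in KO. Kit had enough counts for the test only through its KO level, and was not called on omitting WT 1, WT 2 or KO 3. The part of such cells in the results was not tested. Alas2, Dcn and Lum had no counts in any library. On the first principal component of the 500 most variable genes WT 2 lay farthest out on the WT side and KO 2 on the KO side, while KO 1 was the KO library nearest to WT.

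KO macrophages had more transcript for most steps between glucose uptake and lactate export. Of the 23 metabolic genes 15 rose, 3 fell and 5 were not called. Rises and falls are those with an adjusted p under 0.05 in edgeR's quasi-likelihood test (Benjamini-Hochberg over all tested genes). Of all tested genes 35.2% met this, 18.5% rising and 16.8% falling. The median log2 fold change of the 23 genes was 0.73, against 0.00 for all tested genes. In bulk RNA a change in the share of cells and a change in RNA per cell cannot be told apart. The 15 rises were between 1.26-fold and 2.02-fold. The 11 genes of HIF regulation and other HIF targets were divided: 4 rose, 2 fell and 5 were not called, with a median of 0.05. Libraries of the genotypes did not overlap for 20 of the 23 metabolic genes, 16 of them higher in KO, and for 7 of the 11 others, 5 of them higher in KO. Over all tested genes 53.4% had libraries that did not overlap, 27.0% higher in KO and 26.4% lower.

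**Figure D1:**
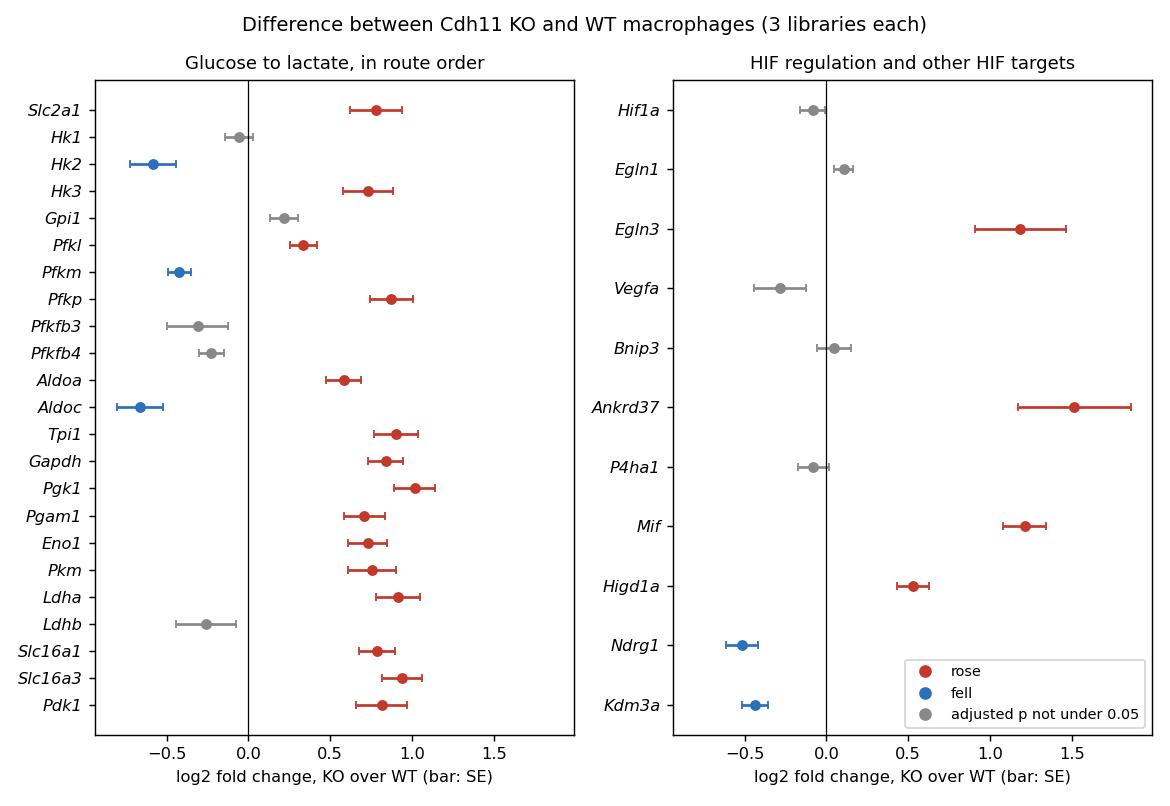
Log2 fold change of KO over WT for each gene, with its standard error as a bar (3 libraries per genotype; red: rose, blue: fell, grey: not called), with metabolic genes in the order of the route (left) and genes of HIF regulation and other targets (right). From Tpi1 to Pkm all genes lie between 0.71 and 1.02, while the HIF genes spread from -0.52 to 1.52.

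Glucose enters the cell through GLUT1, the product of Slc2a1. Slc2a1 stood at 45.1, 54.3 and 50.6 CPM in WT 1 to WT 3 and at 67.3, 104 and 86.4 CPM in KO 1 to KO 3. All KO libraries were above all WT libraries, and the rise was 1.72-fold (log2 fold change 0.78, SE 0.16, adjusted p = 0.0131 in edgeR). On omitting WT 1 it was no longer called.

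Hexokinase, which traps glucose as glucose 6-phosphate, had isozymes that went in opposite directions. Hk3, the hexokinase prominent in myeloid cells, was at 155, 175 and 168 CPM in WT and at 210.3, 318 and 298 CPM in KO, a 1.66-fold rise (adjusted p = 0.0141 in edgeR). Hk2, the isozyme usually counted among HIF targets, was at 70.2, 89.7 and 61.4 CPM in WT and at 49.4, 45.0 and 53.3 CPM in KO. Both genes separated the genotypes completely, Hk3 upward and Hk2 downward. Hk2 fell by 0.58 on the log2 scale (SE 0.14, adjusted p = 0.0224 in edgeR) and dropped out on omitting any library but WT 2 or WT 3. Hk3 dropped out on omitting WT 1 or KO 3. Hk1, the isozyme bound to mitochondria in most tissues, overlapped between genotypes at 107 ± 6.91 CPM in WT and 103 ± 9.95 CPM in KO (SD, n = 3; log2 fold change -0.06, SE 0.09).

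Gpi1, the isomerase of the next step, was at 400.1 ± 14.2 CPM in WT and 465 ± 49.6 CPM in KO (SD, n = 3). Its KO libraries lay above its WT libraries, but it was not called (log2 fold change 0.22, SE 0.09; adjusted p = 0.0841 in edgeR).

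Phosphofructokinase, the committed step, is built from 3 subunit genes that also diverged. Pfkp, the platelet-type subunit, was at 52.0, 51.6 and 62.3 CPM in WT and at 83.5, 114 and 107 CPM in KO, a 1.83-fold rise (adjusted p = 0.00655 in edgeR). Pfkl, the liver-type subunit, rose 1.26-fold, from 84.3 ± 7.93 to 106 ± 6.95 CPM (SD, n = 3), but dropped out on omitting any library but WT 2 or KO 1. Pfkm, the muscle-type subunit, was at 24.7, 21.8 and 23.5 CPM in WT and at 18.0, 17.1 and 17.2 CPM in KO. Its libraries hardly differed within a genotype, and it fell by 0.42 on the log2 scale (SE 0.07, adjusted p = 0.00739 in edgeR). An exon of Pfkp overlaps Pitrm1, and one of Pfkm overlaps Senp1, both on the opposite strand. Whether counting used the strand is not stated in the labels, so such pairs may share counts, as may Tpi1 with Spsb2, Gapdh with Iffo1 and Hk3 with Unc5a.

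Pfkfb3 and Pfkfb4 make and break fructose 2,6-bisphosphate, the activator of phosphofructokinase, and both are known as hypoxia-inducible. Neither was called. Pfkfb3 was at 72.3, 93.4 and 62.1 CPM in WT and at 73.6, 52.2 and 57.9 CPM in KO, so that the genotypes overlapped. Pfkfb4 was at 50.5, 59.2 and 50.1 CPM in WT and at 46.4, 45.2 and 44.9 CPM in KO (log2 fold change -0.23, SE 0.08; adjusted p = 0.0519 in edgeR). Each KO library of Pfkfb4 was thus below each WT library, by a margin that did not pass the threshold.

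Aldolase splits the sugar into 2 triose phosphates. Aldoa, its main form outside liver and brain, was at 854, 894 and 932 CPM in WT and at 1139, 1514 and 1359.5 CPM in KO, a rise of 0.58 on the log2 scale (SE 0.11, adjusted p = 0.00893 in edgeR). Aldoc, the brain-type form, was at 15.9, 15.5 and 19.3 CPM in WT and at 8.88, 12.4 and 10.8 CPM in KO. It fell by 0.66 on the log2 scale (SE 0.14, adjusted p = 0.0133 in edgeR). The abundant aldolase gene thus rose and the scarce one fell.

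From triose phosphate to pyruvate all 6 genes rose, each with every KO library above every WT library. Tpi1, triose phosphate isomerase, was at 249.98, 242.96 and 283.37 CPM in WT and at 392.01, 558.22 and 498.53 CPM in KO (log2 fold change 0.90, SE 0.13). Pgk1, phosphoglycerate kinase and the first ATP-yielding step, was at 136, 121 and 151 CPM in WT and at 241, 319.9 and 265 CPM in KO. Its 2.02-fold rise (log2 fold change 1.02, SE 0.12, adjusted p = 0.00499 in edgeR) was the largest of the 23 metabolic genes. Gapdh, the dehydrogenase often used as a reference gene, was at 164, 153 and 159.6 CPM in WT and at 252, 334 and 267 CPM in KO, a 1.79-fold rise (adjusted p = 0.00506 in edgeR). Pgam1, a mutase, rose from 243 ± 14.9 to 396 ± 68.5 CPM and Eno1, an enolase, from 354 ± 18.1 to 587 ± 96.3 CPM (SD, n = 3). Pkm, pyruvate kinase, was at 1297, 1366 and 1471 CPM in WT and at 1816, 2756 and 2406 CPM in KO. It rose 1.69-fold (adjusted p = 0.0111 in edgeR) and was not called on omitting WT 1. The counts do not separate the M1 and M2 splice forms of Pkm.

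Several of these genes have near-identical copies elsewhere in the genome that may take part of their reads. An alignment of each member's longest coding transcript to all annotated transcripts (at least 95% identity over at least 500 bases) found such copies for 10 members. For 4 of them the copies held over 5% of the summed counts: 80.7% for Gapdh with 73 copies, 50.6% for Pgk1, 35.0% for Eno1 with Eno1b as the main copy, and 22.0% for Pgam1. The CPM of these 4 genes are therefore uncertain as levels and are not compared with other steps. With the copies added, the log2 ratio of the KO mean to the WT mean was 0.79 for Gapdh, 1.00 for Pgk1, 0.72 for Eno1 and 0.71 for Pgam1. Without them it was 0.84, 1.02, 0.73 and 0.71. In each of the 4 sums the KO libraries lay above the WT libraries. The 2 copies of Ldha and the 1 copy of Pkm were absent from the count table, and only 1 of 4 Bnip3 copies was in it. The table held 68 of the 73 Gapdh copies and 2 of the 3 Eno1 copies, so the sums for Gapdh and Eno1 are incomplete. What those absent copies took could not be measured.

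At the lactate end of the route the abundant genes rose as well. Ldha, the subunit that favours lactate formation, was at 349, 325 and 372 CPM in WT and at 543, 785 and 640.0 CPM in KO, a 1.88-fold rise (adjusted p = 0.00621 in edgeR). Ldhb, the heart-type subunit, was not called and overlapped between genotypes, at 12.7 ± 1.62 CPM in WT and 10.7 ± 2.65 CPM in KO (SD, n = 3). Pdk1, the kinase that inhibits pyruvate dehydrogenase and so limits the conversion of pyruvate to acetyl-CoA, was at 62.1, 53.0 and 68.6 CPM in WT and at 91.8, 132 and 100.1 CPM in KO, a 1.76-fold rise (adjusted p = 0.0112 in edgeR). Slc16a3, the lactate exporter MCT4, was at 38.6, 43.0 and 43.6 CPM in WT and at 65.9, 91.1 and 82.8 CPM in KO. Its KO libraries were all above its WT libraries, and it rose 1.92-fold (log2 fold change 0.94, SE 0.12, adjusted p = 0.00543 in edgeR). Slc16a1, the transporter MCT1, rose 1.73-fold from a lower level, 12.6 ± 0.945 CPM in WT to 21.7 ± 2.85 CPM in KO (SD, n = 3).

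**Figure D2:**
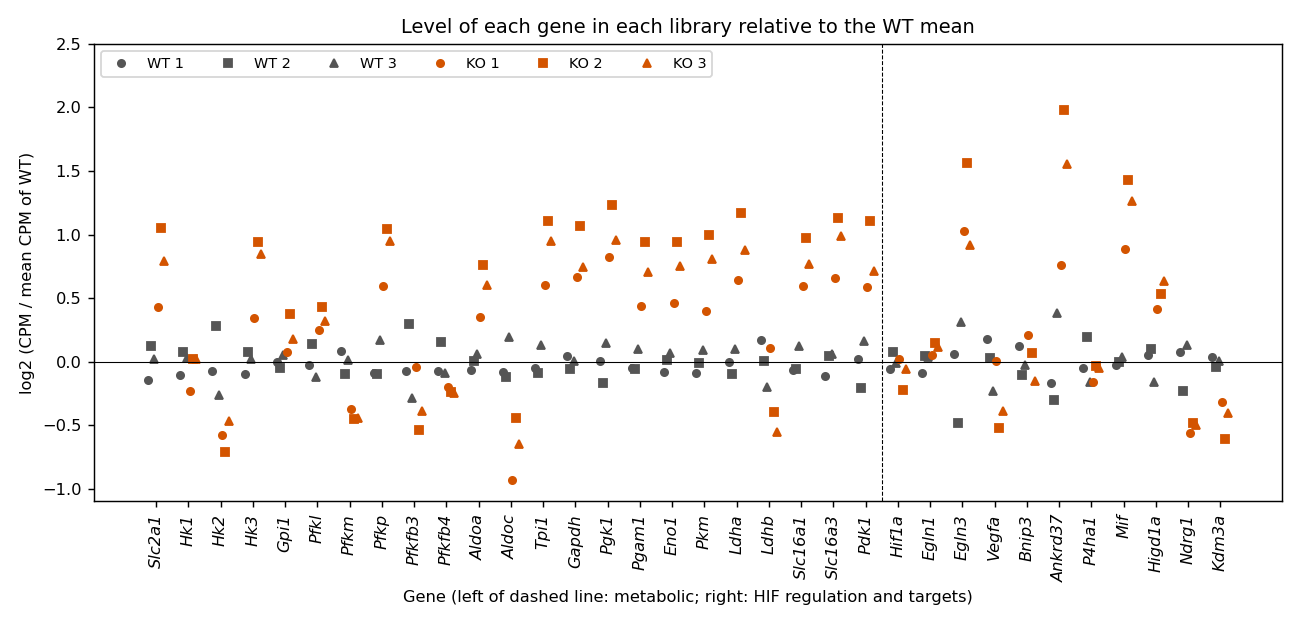
Level of each of the 34 genes in each library, as log2 of the CPM over the mean CPM of WT (grey: WT; orange: KO; marker shape: library number, which does not pair libraries). Of the 15 metabolic genes that rose, KO 1 is the lowest and KO 2 the highest KO library in all 15.

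The isozymes of a step were also compared, for 7 families, as shares of their summed level per kilobase of exon. An exact two-sided permutation test over libraries took the share of a single gene in each: Hk1, Pfkl, Aldoa, Ldha, Slc16a1, Pfkfb3 and Egln1. With 3 against 3 libraries this test cannot give a p below 0.1. Among hexokinases Hk3 took 64.2, 62.7 and 66.4% in WT and 75.0, 81.0 and 78.9% in KO, while Hk2 went from 17.6 ± 2.44 to 8.88 ± 1.91% and Hk1 from 18.0 ± 0.593 to 12.8 ± 1.14% (SD, n = 3). Within phosphofructokinase Pfkm went from 29.5 ± 2.32 to 18.3 ± 1.83% and Pfkp from 17.4 ± 2.24 to 26.2 ± 2.43%, while the Pfkl share overlapped. Aldoa took 98.3 ± 0.146% of aldolase in WT and 99.3 ± 0.018% in KO, and Ldha 92.8 ± 1.11% of lactate dehydrogenase in WT and 96.5 ± 1.39% in KO. The shares of Hk1, Aldoa, Ldha and Egln1 reached the smallest possible exact permutation p of 0.1 (0.175 after Benjamini-Hochberg adjustment over the 7 families). Hence none passed 0.05. The shares of Hk2, Hk3, Pfkm and Pfkp did not overlap between genotypes and were not tested. For Pfkl the exact p was 0.4, for Slc16a1 against Slc16a3 0.2 and for Pfkfb3 against Pfkfb4 0.8. The direction for Pfkl turned with plain counts, where its share differed by -4.35 percentage points (KO minus WT) instead of 2.37.

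**Figure D3:**
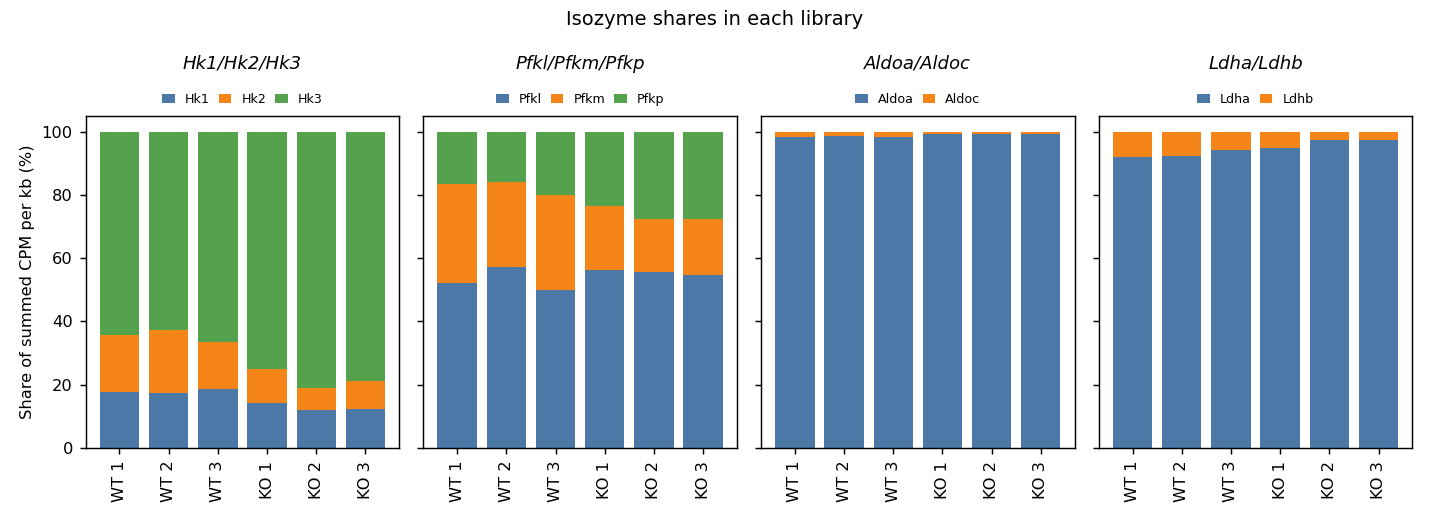
Share of each isozyme in the summed CPM per kilobase of its family (y axis, percent) in each library, for hexokinase, phosphofructokinase, aldolase and lactate dehydrogenase. The Hk3 band is wider in each KO library (75.0 to 81.0%) than in each WT library (62.7 to 66.4%), and the Pfkm band is narrower.

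Hif1a, the transcript of HIF-1 alpha, did not pass the test. It was at 121, 133 and 125 CPM in WT and at 128, 108 and 121 CPM in KO, with overlapping genotypes (log2 fold change -0.08, SE 0.08; adjusted p = 0.416 in edgeR). Egln1, the main prolyl hydroxylase, was at 49.1 ± 2.55 CPM in WT and 52.8 ± 1.72 CPM in KO (SD, n = 3) and was not called. Egln3, a prolyl hydroxylase that is itself induced by HIF, was scarce, at 1.04, 0.717 and 1.24 CPM in WT and at 2.04, 2.95 and 1.89 CPM in KO. It rose 2.27-fold (log2 fold change 1.19, SE 0.28, adjusted p = 0.0177 in edgeR) on 19 to 86 counts per library, and dropped out on omitting WT 1, WT 2 or KO 2. The HIF-induced hydroxylase was thus higher in KO while the transcript of HIF-1 alpha itself was not called.

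Among the other HIF targets 3 rose. Mif, a cytokine with a long record as a hypoxia-induced gene, was at 49.8, 50.7 and 52.1 CPM in WT and at 93.9, 137 and 122 CPM in KO. Its WT libraries were nearly equal, and its 2.31-fold rise (log2 fold change 1.21, SE 0.13) had the lowest adjusted p of the 34 genes (0.00482 in edgeR). Ankrd37, an ankyrin repeat protein used as a HIF reporter gene, was at 1.366, 1.245 and 1.9997 CPM in WT and at 2.60, 6.08 and 4.52 CPM in KO. Its 2.86-fold rise (log2 fold change 1.52, SE 0.34, adjusted p = 0.0160 in edgeR) was the largest of the 34 genes, and it dropped out on omitting WT 1, WT 2 or KO 3. An exon of Ankrd37 overlaps Ufsp2, a more abundant gene on the opposite strand. Higd1a, a mitochondrial protein of the respiratory chain, rose 1.44-fold, from 13.7 ± 1.28 to 19.8 ± 1.47 CPM (SD, n = 3).

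The remaining HIF targets fell or were not called. Kdm3a, a histone H3 lysine demethylase, was at 76.7, 72.7 and 75.0 CPM in WT and at 60.0, 49.0 and 56.6 CPM in KO, and fell by 0.44 on the log2 scale (SE 0.08, adjusted p = 0.00845 in edgeR). Ndrg1, a stress-responsive gene also named for its regulation by N-myc, was at 64.4, 52.1 and 67.0 CPM in WT and at 41.4, 43.7 and 43.4 CPM in KO, and fell by 0.52 (SE 0.10, adjusted p = 0.00906 in edgeR). Both had all KO libraries below all WT libraries. Vegfa, the vessel growth factor, was at 79.4, 71.6 and 59.6 CPM in WT and at 70.4, 48.9 and 53.7 CPM in KO, with overlap (log2 fold change -0.28, SE 0.16; adjusted p = 0.204 in edgeR). Bnip3, a mitophagy receptor, was at 29.1 ± 2.39 CPM in WT and 30.1 ± 3.74 CPM in KO, and P4ha1, a collagen prolyl hydroxylase subunit, at 118 ± 15.2 and 111 ± 5.07 CPM (SD, n = 3). These 3 genes had log2 fold changes between -0.28 and 0.05. Omitting WT 1 or WT 2 left 2 rises among the 11 genes, and omitting KO 1 gave 3 falls and a median of -0.04.

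Promoter letters were then set beside these directions. RefSeq promoter windows (GRCm38.p6, 250 bases before to 50 after the start; where a gene has several, the one nearest to the annotated gene start) were found for 33 of the 34 genes, Ndrg1 being without one. They were searched on both strands for ACGTG and GCGTG, the core of the hypoxia response element. Overlapping matches to ACGTG on opposite strands form CACGTG, an E-box, and were counted as 2. Either core was present in 27 of the 33 windows (81.8%; 95% Wilson interval 65.6 to 91.4%), in 63.7% of 9525 windows of tested genes and in 49.0% of 18797 windows in all. ACGTG was present in 20 (60.6%), against 25.9% and 20.7%, and GCGTG in 18 (54.5%), against 52.1% and 38.1%. By group, 18 of 23 metabolic windows and 9 of 10 windows of the HIF group had either core. Several members were listed as HIF targets in the first place, so this share is a description of the list.

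The 250 bases before the start are printed for 6 genes that held either core and went in different directions. Pgk1, Ldha and Slc16a3 rose, Hk2 and Kdm3a fell, and Bnip3 was not called. The start used lies 4329 bases from the annotated gene start for Ldha, 587 for Slc16a3, 73 for Kdm3a and 13 for Bnip3. Capitals mark the matches to ACGTG and GCGTG on either strand, and each sequence reads 5′ to 3′ along the gene. The regions are chrX:106186850-106187099 (plus strand), chr7:46845554-46845803 (plus), chr11:120948817-120949066 (plus), chr6:82774455-82774704 (minus), chr6:71632918-71633167 (minus) and chr7:138909507-138909756 (minus).
Pgk1: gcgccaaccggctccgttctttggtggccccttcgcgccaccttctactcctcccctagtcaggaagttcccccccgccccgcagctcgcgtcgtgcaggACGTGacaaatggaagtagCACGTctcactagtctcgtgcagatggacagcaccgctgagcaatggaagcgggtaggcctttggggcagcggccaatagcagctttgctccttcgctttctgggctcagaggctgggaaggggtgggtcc
Ldha: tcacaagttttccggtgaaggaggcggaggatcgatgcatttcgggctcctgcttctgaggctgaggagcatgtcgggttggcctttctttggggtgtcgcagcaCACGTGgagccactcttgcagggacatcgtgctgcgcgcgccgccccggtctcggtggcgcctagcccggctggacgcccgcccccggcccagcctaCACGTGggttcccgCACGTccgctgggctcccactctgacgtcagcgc
Slc16a3: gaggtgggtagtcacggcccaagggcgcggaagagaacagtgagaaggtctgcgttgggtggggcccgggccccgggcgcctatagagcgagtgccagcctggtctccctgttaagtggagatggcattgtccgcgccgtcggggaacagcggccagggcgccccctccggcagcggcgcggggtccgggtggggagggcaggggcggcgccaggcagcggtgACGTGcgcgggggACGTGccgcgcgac
Hk2: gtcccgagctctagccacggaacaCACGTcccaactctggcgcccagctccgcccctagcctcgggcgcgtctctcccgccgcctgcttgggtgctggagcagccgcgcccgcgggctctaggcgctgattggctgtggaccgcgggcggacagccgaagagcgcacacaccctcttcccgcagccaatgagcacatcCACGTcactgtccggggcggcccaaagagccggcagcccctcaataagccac
Kdm3a: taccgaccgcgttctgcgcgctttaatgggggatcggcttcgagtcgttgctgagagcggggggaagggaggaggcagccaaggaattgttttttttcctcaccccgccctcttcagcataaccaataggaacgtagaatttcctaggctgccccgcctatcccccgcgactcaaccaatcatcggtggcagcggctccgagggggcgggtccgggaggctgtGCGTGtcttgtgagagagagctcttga
Bnip3: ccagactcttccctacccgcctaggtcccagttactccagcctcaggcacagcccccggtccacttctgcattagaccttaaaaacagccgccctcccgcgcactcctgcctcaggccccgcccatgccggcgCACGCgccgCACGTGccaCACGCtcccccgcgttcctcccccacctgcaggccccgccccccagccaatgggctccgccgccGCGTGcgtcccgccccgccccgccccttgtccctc

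In the whole windows Pgk1, Slc16a3 and Hk2 each held 2 matches to ACGTG and none to GCGTG, so that a gene that fell carried as many as 2 that rose. Ldha held 5 matches to ACGTG, with 2 E-boxes CACGTG among them, and 2 to GCGTG. Bnip3, which was not called, held 2 to ACGTG and 3 to GCGTG. Kdm3a held 1 match to GCGTG and none to ACGTG. The windows of Vegfa, Pkm, Aldoa, Tpi1, Gpi1 and Hk1 held neither core. A match is a description of the letters and says nothing on binding.

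Other genes of the pathways were then examined. Of 45 further genes of glycolysis and pyruvate metabolism 31 were tested, of which 9 rose (29.0%) and 5 fell (16.1%), with a median log2 fold change of 0.16. Over all tested genes 18.5% rose and 16.8% fell, so the share of falls was near that of all genes. The neuronal enolase Eno2 rose from 6.62 ± 1.95 to 11.7 ± 0.108 CPM but dropped out on omitting WT 1, KO 2 or KO 3. The ADP-dependent glucokinase Adpgk rose from 27.5 ± 1.40 to 41.0 ± 2.59 CPM. Bsg, the basigin chaperone that carries MCT1 and MCT4 to the membrane, rose from 189 ± 6.24 to 249.9 ± 10.8 CPM. Eno1b rose too (log2 fold change 0.70), but shares its reads with Eno1. The falls included the pyruvate dehydrogenase kinase Pdk2, from 15.8 ± 0.750 to 9.93 ± 0.888 CPM, in contrast to its paralog Pdk1. They also included the transporters Slc16a7 (MCT2), from 70.2 ± 3.56 to 44.6 ± 8.79 CPM, Slc2a8, from 25.4 ± 2.16 to 17.6 ± 1.34 CPM, and Slc2a6, from 35.1 ± 11.6 to 17.5 ± 5.45 CPM (SD, n = 3 throughout). Slc16a7 dropped out on omitting WT 1 or KO 3, and Slc2a6 on omitting any 1 library. Rises numbered 5 on omitting WT 1, WT 2, WT 3 or KO 2 and 4 on omitting KO 3, and falls 3 on omitting WT 1 or KO 3. Upper-quartile scaling called 14 rises.

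Of 14 further regulators of HIF 13 were tested, of which 2 rose (15.4%) and 5 fell (38.5%), with a median of -0.09. Over all tested genes 18.5% rose and 16.8% fell. Cited2, which competes with HIF for the coactivators p300 and CBP, fell from 212 ± 19.0 to 141 ± 14.6 CPM. The coactivator genes themselves also fell, Ep300 from 204 ± 10.4 to 158 ± 19.2 CPM and Crebbp from 47.6 ± 1.17 to 34.4 ± 5.05 CPM. Vhl, the ubiquitin ligase subunit that recognises hydroxylated HIF, fell from 24.7 ± 1.62 to 20.1 ± 1.81 CPM. Arnt, the partner of HIF-1 alpha and the fifth of these falls (named after its values were seen), went from 71.2 ± 3.38 to 59.7 ± 6.04 CPM. The 2 rises were Elob and Rbx1, partners of VHL in its ligase, from 49.1 ± 0.297 to 72.2 ± 3.76 CPM and from 54.2 ± 1.31 to 66.8 ± 4.23 CPM (SD, n = 3 throughout). Falls numbered 1 on omitting WT 1 or KO 3, 2 on omitting WT 2 or KO 2, and 3 on omitting WT 3. Cited2 was called in each of these.

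Of 32 further HIF targets 27 were tested, of which 11 rose (40.7%) and 6 fell (22.2%), with a median of 0.22. Over all tested genes 18.5% rose and 16.8% fell. Plod2, a collagen lysyl hydroxylase, stood at 0.241, 0.0755 and 0.379 CPM in WT and at 1.51, 1.99 and 2.06 CPM in KO, on as few as 2 counts in a WT library. It reached the minimum count in 1 of 3 WT libraries and was tested only because of its KO level, so its call (log2 fold change 2.95, SE 0.41) followed in part from the filter. Ak4, a mitochondrial adenylate kinase, rose 3.19-fold, from 1.71 ± 0.0404 to 5.45 ± 1.59 CPM. Hilpda, a lipid droplet protein, rose 2.14-fold, from 4.30 ± 0.494 to 9.19 ± 2.59 CPM, and was not called on omitting WT 1. On the falling side were the cyclin Ccng2, from 48.9 ± 2.40 to 30.7 ± 1.22 CPM, Selenbp1, a methanethiol oxidase, from 24.7 ± 0.308 to 15.5 ± 0.465 CPM, the chemokine receptor Cxcr4, from 180.2 ± 15.2 to 129.8 ± 24.3 CPM, and the nuclear receptor Rora, from 19.8 ± 0.418 to 14.9 ± 2.05 CPM (SD, n = 3 throughout). Cxcr4 dropped out on omitting any library but KO 2 or KO 3, and Rora on omitting any but KO 1. Rises numbered 5 on omitting WT 1, 6 on omitting WT 2 and 7 on omitting KO 2 or KO 3. Falls numbered 3 on omitting any WT library.

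**Figure D4:**
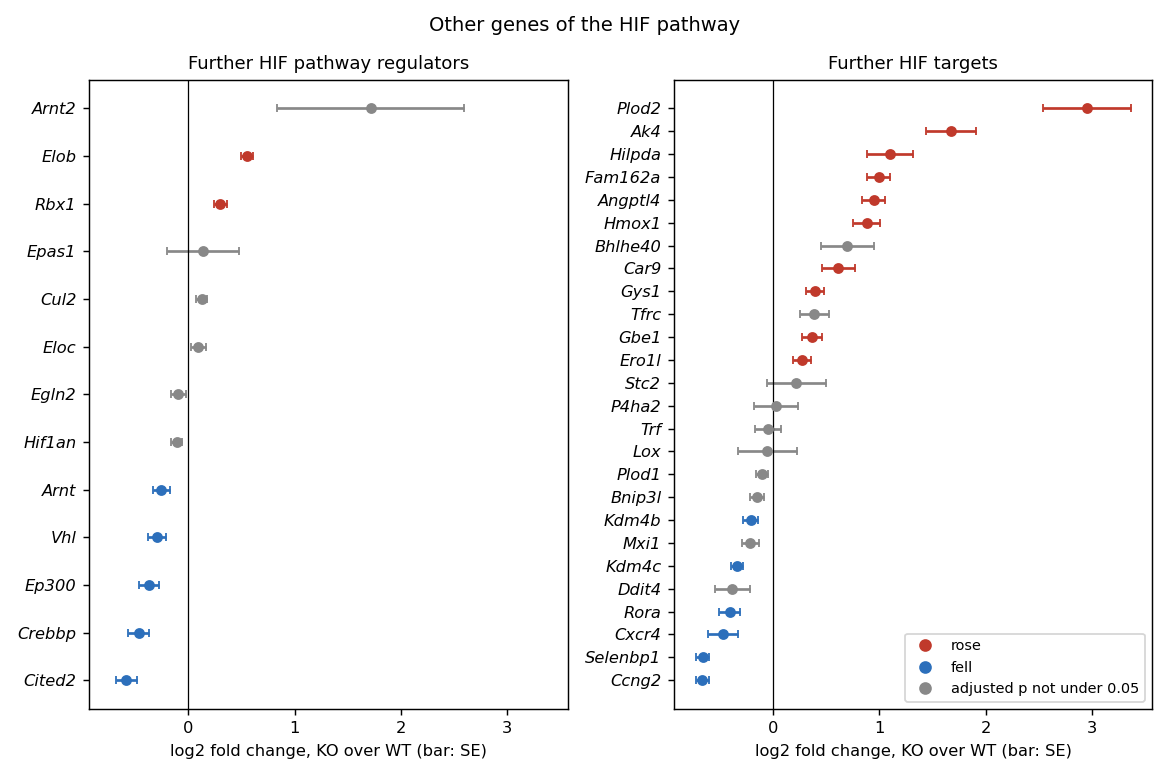
Log2 fold change of KO over WT with its standard error for tested further HIF pathway regulators (left) and further HIF targets (right; 1 target is not shown) (red: rose, blue: fell, grey: not called). Regulators lie mostly below 0 among those called, whereas targets range from -0.67 for Ccng2 to 1.67 for Ak4, and to 2.95 for Plod2, which passed the filter through KO only.

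The size of the rise differed between KO libraries in the same order for gene after gene. KO 1 was the lowest and KO 2 the highest KO library in all 15 metabolic genes that rose. WT 3 was the highest WT library in 11 of them. The first principal component of the 500 most variable genes had the same order of KO libraries (KO 1 7.11, KO 3 18.4, KO 2 28.4). On it WT 3, at -12.2, was the WT library nearest to KO. The order was thus not particular to these 15 genes, and its share among all risen genes was not counted. The median log2 level of the 23 metabolic genes relative to the WT mean was 0.40 in KO 1, 0.94 in KO 2 and 0.71 in KO 3, and -0.07 to 0.06 in WT. For the 11 HIF genes, which mix rises and falls, it was between -0.05 and 0.07 in all 6 libraries. Of all 19 members that rose, KO 1 was the lowest KO library in 18 and KO 2 the highest in 18. Among the HIF genes Mif and Ankrd37 kept this order, while Egln3 was lowest in KO 3 and Higd1a highest in KO 3. Genes of dividing cells followed the same order: the summed level of 10 such genes was 409 to 721 CPM in WT, highest in WT 3, and 927 CPM in KO 1, 1462 CPM in KO 2 and 1056 CPM in KO 3. Of these 10 genes 5 rose (Birc5, Mcm2, Mcm5, Pcna and Rrm2), against 18.5% of all tested genes. On omitting WT 1 only Pcna rose, and on omitting KO 2 or KO 3 there were 2 rises. On omitting WT 2 there were 3, and on omitting WT 3 all 10 rose. Over all tested genes the rises went from 2375 with all libraries to 1037 without WT 1, 1426 without KO 2 and 1322 without KO 3. They numbered 1327 without WT 2 and 2026 without WT 3. Between WT 3 and KO 1, 2 of the 10 were lower in KO 1 and the others higher, as Pcna at 284 and 457 CPM. The 15 metabolic genes were 1.22-fold to 1.60-fold higher in KO 1 than in WT 3. They were picked as called rises, and their libraries did not overlap between genotypes. This direction was thus fixed beforehand and cannot be set against that of the 10 genes, which were not picked in this way. The part of cell division in these rises was not tested.

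**Figure D5:**
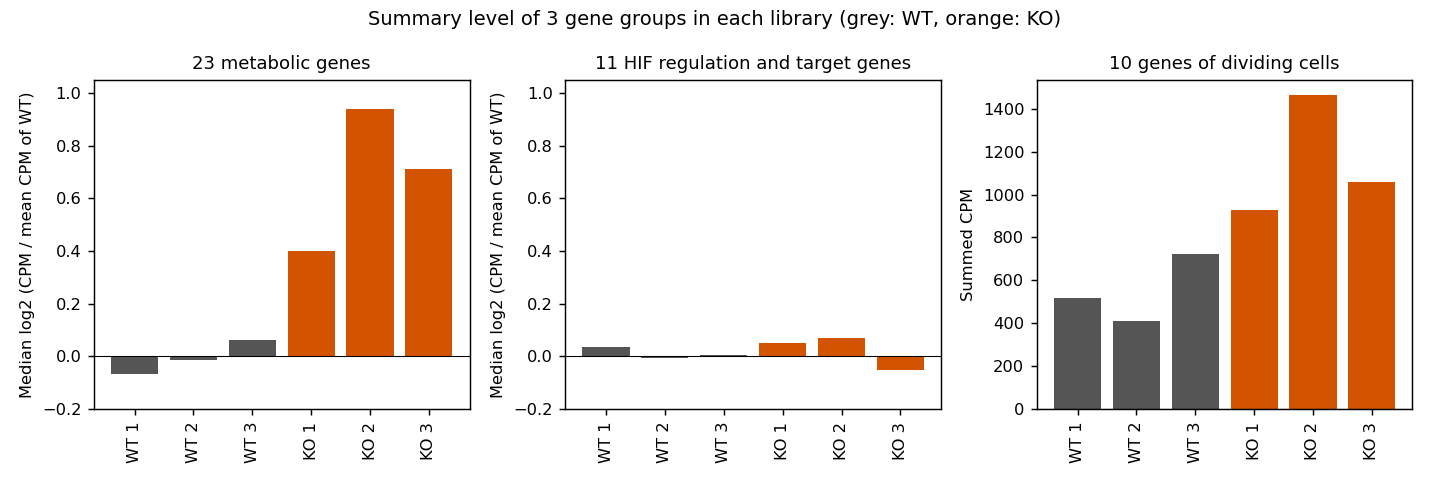
Median log2 level relative to the WT mean of the 23 metabolic genes (left) and the 11 HIF regulation and target genes (middle), and summed CPM of 10 genes of dividing cells (right), in each library. The metabolic median and the dividing-cell sum share their order among KO libraries (KO 2 highest, KO 1 lowest). The first principal component of the 500 most variable genes has this order too. The HIF median, over genes that rose and genes that fell, stays between -0.05 and 0.07.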

How the data were processed

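RNA of bone marrow-derived macrophages (3 WT and 3 KO libraries, grouped by the genotype label, numbered in sample order without pairing) was sequenced from directional libraries. The authors deposited whole-number counts per Ensembl gene and a normalized signal per gene. The submitters' processing notes name DRAGEN, DESeq2 and mm10, without roles or versions; the labels state neither counter nor annotation. In the deposited signal, each count had been divided by a factor specific to its gene and library. Symbols, coordinates and exon lengths came from GENCODE M21 (GRCm38).

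The test on counts used edgeR 4.0.16 under R 4.3.3 (filterByExpr, minimum count 10, TMM, robust quasi-likelihood F test without covariates, two-sided, Benjamini-Hochberg over 12862 genes, threshold 0.05). SE is the log2 fold change over the square root of F. The fit was tested on simulated data. Replicate pairs differed beyond sampling noise (chi-square per degree of freedom 11.7 to 48.8). Alternatives were DESeq2 1.42.0, limma 3.58.1 (voom, voom with quality weights, and log2 of the deposited signal plus 1), other scalings and filters, and leaving out libraries. Members and lists were chosen with earlier results of these data known. All 34 members are reported; of other lists, up to 4 called rises and 4 falls with the largest change. Some items are not reported here. The interval covers counting error only.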

Additional observations from a re-analysis of the deposited data

How the results depend on the processing

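No called member changed direction under the settings run. All 34 members, called or not, had 306 values under the 9 other tools, scalings and filters with all libraries. Of these 295 kept their direction and side of the threshold, and 3 changed sign without a call. Another 2 lost the call (Aldoc and Kdm3a, on the deposited signal) and 6 gained one. With 1 library left out, 179 of 204 values kept direction and side, 4 changed sign, 18 lost the call and 3 gained one. Of the 24 called members 17 kept the call throughout. The changes of sign were in uncalled genes. Hk1 was at 0.0188 with quality weights and 0.0019 with upper-quartile scaling, and Bnip3 at -0.1135 with quality weights. With 1 library left out, Hk1 ran from -0.1118 to 0.0186 (without KO 1), Bnip3 from -0.0418 (without KO 1) to 0.1336, with -0.0097 without WT 2, and P4ha1 from -0.1576 to 0.0201 (without WT 2). Without both WT 2 and KO 2, Hif1a was at 0.018, Bnip3 at -0.0162 and P4ha1 at 0.0017. The cause of these changes was not tested. Fewer libraries also mean fewer degrees of freedom.

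Without 1 library the genes higher in KO ran from 1037 (without WT 1) to 2791 (without KO 1) and those lower from 942 to 2665. The metabolic rises ran from 11 to 16, their falls from 2 to 3 and their median log2 fold change from 0.61 to 0.85. The rises of the HIF group ran from 2 to 4, its falls from 2 to 3 and its median from -0.042 to 0.093. Of the further glycolysis genes 4 to 12 rose and 3 to 4 fell, with a median of 0.14 to 0.19. Of the further regulators 2 rose throughout and 1 to 5 fell, with a median of -0.107 to -0.0575. Of the further HIF targets 5 to 12 rose and 3 to 5 fell, with a median of 0.06 to 0.29. Differences in isozyme share ran from -5.79 to -4.71 points for Hk1, 0.705 to 4.46 for Pfkl, 0.875 to 1.02 for Aldoa, 3.27 to 4.53 for Ldha, -2.62 to -1.48 for Slc16a1, -3.58 to 0.345 for Pfkfb3 and -3.30 to -2.17 for Egln1.

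Leaving out WT 2 and KO 2 together, an alternative chosen after seeing the data, left 710 genes higher and 668 lower, 2 rises in the HIF group, 4 rises among further glycolysis genes, 1 rise and 1 fall among regulators, and 6 rises and 3 falls among further targets. Quality weights gave 5 metabolic falls, 15 rises among further glycolysis genes, a HIF group median of -0.037 and a regulator median of -0.056. Upper-quartile scaling, under which 64.4% of calls were rises instead of 52.4%, gave 14 rises among further glycolysis genes (median 0.22), 3 falls among regulators and a regulator median of -0.035. On the deposited signal 1 HIF group gene fell, and the medians were 0.20 for further glycolysis genes and -0.13 for regulators. The regulator median was -0.0014 in DESeq2 and -0.0046 without a filter, both fitted to 21695 genes. A filter at 50 counts turned the median of further HIF targets to -0.009. With plain counts the share differences were -6.71 for Hk1, -4.35 for Pfkl and 1.87 for Ldha. ACGTG alone was in 60.6% of member windows. No paired analysis was possible because the labels give no replicate numbers.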
